A study of Arabidopsis thaliana with 9 samples.

Results

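The core circadian clock of Arabidopsis thaliana was followed here through the transcripts of 10 genes, out of 33302 features in the deposited expression table. The genes were listed by gene identifier, with earlier results of these data known. They are CCA1 (AT2G46830), LHY (AT1G01060), PRR9 (AT2G46790), PRR7 (AT5G02810), PRR5 (AT5G24470), TOC1 (AT5G61380), GI (AT1G22770), LUX (AT3G46640), ELF3 (AT2G25930) and ELF4 (AT2G40080). RNA was sequenced from leaves of 21-day-old plants in the Columbia-0 background, grown in soil at 23 °C with 16 h of light and 8 h of dark. All plants had a transgene of HTR5 (AT4G40040), which encodes a histone H3, in its unmutated form in the 2 WT libraries and with the K36M change (lysine 36 to methionine, at a residue whose methylation marks transcribed genes) in the 2 K36M libraries. According to the labels, each group has 2 biological replicates. The labels give neither the hour of harvest, nor the promoter and number of lines of the insertions, nor whether the K36M insertion was heterozygous or homozygous in the plants used for RNA. The H3K36me3 immunoprecipitation part of the study was not analysed here.

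The plant clock is a network of repressors that act in turn over the day. The MYB factors CCA1 and LHY are made around dawn and repress the evening genes, the pseudo-response regulators PRR9, PRR7, PRR5 and TOC1 follow one another and repress CCA1 and LHY, and the evening complex of ELF3, ELF4 and LUX represses PRR9 and other genes at night. In leaves this network sets the daily timing of photosynthesis, growth and flowering genes. By the known peak times of their transcripts in wild-type plants, CCA1, LHY, PRR9 and PRR7 are called morning genes here, and PRR5, TOC1, GI, LUX, ELF3 and ELF4 evening genes.

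Levels are FPKM (fragments counted per kilobase and relative to library size), so that genes can be compared per length. Differences are K36M minus WT on the log2(FPKM + 1) scale, which understates the differences of low genes, and the 17738 features whose mean reached 1 FPKM were tested. HTR5 stood at 322 and 711 FPKM in WT, against 391 and 582 FPKM in K36M, a log2 difference of 0.00 ± 0.68 (SE, n = 2 per group; limma adjusted p = 1). Transcripts of the mutated and unmutated copies are summed in this value. WT replicate 1 was the least like the others (Pearson r across tested features 0.821 to 0.834, against 0.937 to 0.95 among the other 3). The sum of FPKM ranged from 766727 to 2150314 per library. The single feature AT2G01021 made up 1.39% of it in WT replicate 1 and 34.59% in WT replicate 2. Without that feature the sums ranged from 756076 to 1406621, and the median of the tested features ranged from 8.044 to 9.604 FPKM. Among the leaf markers, mesophyll genes were abundant everywhere, with summed levels of 32500 and 84800 FPKM in WT, against 39400 and 48000 FPKM in K36M. Mesophyll transcripts were thus present in all 4 libraries, which does not show that the tissue taken was the same in each. The shoot meristem markers STM and KNAT1, given below, differed between the libraries.

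Within every library CCA1 and LHY were by far the most abundant of the 10. LHY was read at 107 and 99.8 FPKM in WT, against 168 and 114 FPKM in K36M, and stood above 90.4% to 95.7% of the tested features of its library. CCA1 was read at 74.7 and 52.5 FPKM in WT, against 125 and 94.2 FPKM in K36M, above 83.9% to 94.4%. LHY exceeded CCA1 in 4 of 4 libraries, although the ranges of the 2 genes over the libraries overlapped. The lowest CCA1 value, 52.5 FPKM, lay above the highest of the other 8 members, 25.5 FPKM for ELF4 in WT replicate 1. These 8 followed in the order of their means, ELF4 (7.82 FPKM), LUX (5.16), TOC1 (5.02), PRR7 (3.77), ELF3 (3.16), GI (2.35), PRR9 (1.85) and PRR5 (0.548). Each neighbouring pair among these 8 overlapped in range and none kept its order in 4 of 4 libraries, so the order of neighbours is not resolved. PRR5, at most 1.62 FPKM, did lie below every value of PRR7, LUX and TOC1, which were at least 2.19, 2.46 and 2.56 FPKM.

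**Figure D1:**
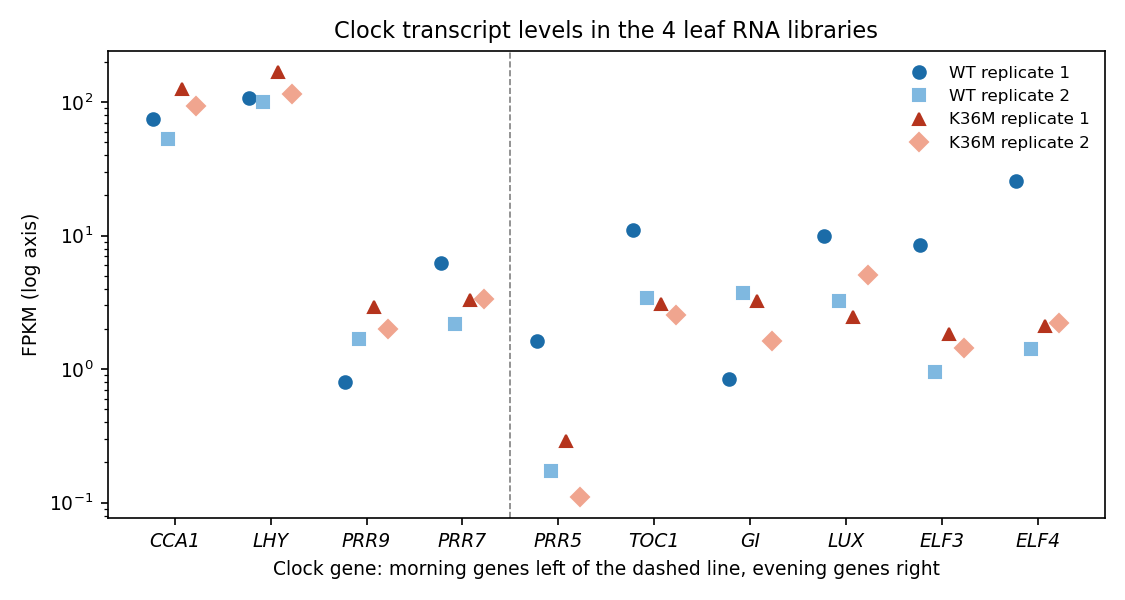
FPKM of the 10 clock genes (log axis) in each of the 4 libraries, one symbol per library, with morning genes left of the dashed line and evening genes right of it. CCA1 and LHY lie between 52.5 and 168 FPKM in every library, and WT replicate 1 (dark circles) is the highest library for 5 of the 6 evening genes.

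In the test of K36M against WT none of the 9 tested members was called (limma adjusted p = 1 for each), against 0.0395% of all tested features. None had an unadjusted limma p under 0.05 either, against 4.12% of all tested features. A missed threshold with 2 libraries per group does not show equal levels, and the intervals below say what sizes remain possible. Among the tested members, 3 had both K36M values above both WT values, against 12.1% of all tested features, and 1 had both below, against 19.3%. The 3 were all morning genes, CCA1, LHY and PRR9, and the 1 was the evening gene TOC1. Their median difference was -0.15, beside -0.05 over all tested features.

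CCA1 was higher in both K36M libraries (125 and 94.2 FPKM) than in either WT library (74.7 and 52.5 FPKM). The groups did not overlap, and the log2 difference was 0.78 ± 0.48 (SE; 95% interval -0.40 to 1.96; limma adjusted p = 1). The difference was about as large between the replicate 1 libraries (0.73) as between the replicate 2 libraries (0.83), and it lay between 0.53 and 1.03 with any single library left out. CCA1 is the member in which the 2 replicate numbers gave the closest values.

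LHY, the partner of CCA1, was read at 168 and 114 FPKM in K36M against 107 and 99.8 FPKM in WT. K36M replicate 1 alone stood well above the others, and K36M replicate 2 exceeded the higher WT library only narrowly. The log2 difference was 0.41 ± 0.50 (SE; 95% interval -0.80 to 1.62; limma adjusted p = 1), with 0.64 between replicate 1 and 0.18 between replicate 2 libraries. Without K36M replicate 1 it was 0.13. Because CCA1 differed more than LHY, the ratio of LHY to CCA1 within a library was 1.44 and 1.9 in WT and 1.34 and 1.21 in K36M, lower in both K36M libraries.

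PRR9, the first of the pseudo-response regulators after dawn, had 0.805 and 1.67 FPKM in WT, against 2.93 and 1.99 FPKM in K36M. These low values did not overlap between the groups, with a log2 difference of 0.64 ± 0.46 (SE; 95% interval -0.48 to 1.76; limma adjusted p = 1). It was 1.12 between replicate 1 and 0.16 between replicate 2 libraries. Without WT replicate 1 it was 0.36.

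PRR7, which follows PRR9 as a repressor of CCA1 and LHY, had 6.24 and 2.19 FPKM in WT, against 3.3 and 3.35 FPKM in K36M. The K36M libraries were nearly equal and lay between the 2 WT libraries. The log2 difference was -0.15 ± 0.51 (SE; 95% interval -1.39 to 1.09; limma adjusted p = 1), turning to 0.44 without WT replicate 1 and to 0.07 with the trend against gene span removed.

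The non-overlap of these morning genes depended in part on the scaling. With median ratio size factors LHY overlapped between the groups, with quantile normalization CCA1, LHY and PRR9 all did, and with the gene span trend removed none of the 3 did. The differences of CCA1, LHY and PRR9 stayed above 0 under every alternative run.

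**Figure D2:**
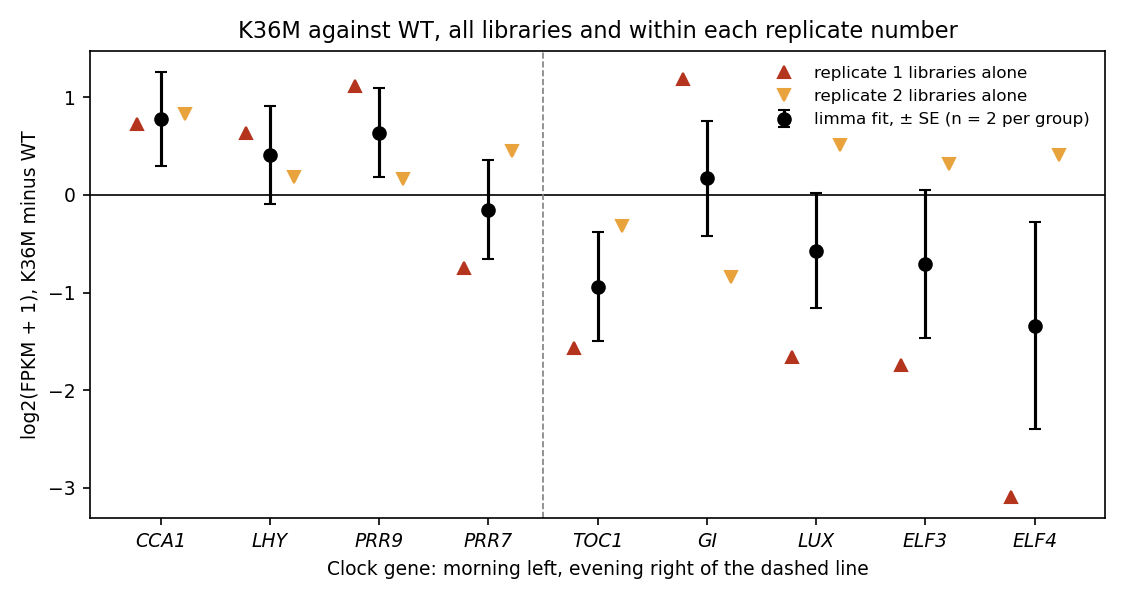
Difference K36M minus WT in log2(FPKM + 1) for the 9 tested clock genes. Black points are the limma fit with its SE (n = 2 per group), and triangles are the differences between the replicate 1 libraries alone and between the replicate 2 libraries alone; CCA1 has 0.73 and 0.83, while ELF4 has -3.09 and 0.41.

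TOC1, the evening pseudo-response regulator that represses CCA1 and LHY, had 11.0 and 3.42 FPKM in WT, against 3.06 and 2.56 FPKM in K36M. Neither K36M value reached a WT value, but the gap to WT replicate 2 was small and most of the difference came from WT replicate 1. The log2 difference was -0.94 ± 0.56 (SE; 95% interval -2.30 to 0.42; limma adjusted p = 1). It was -1.57 between replicate 1 and -0.32 between replicate 2 libraries, and -0.22 without WT replicate 1. With median ratio size factors the groups overlapped.

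The evening complex differed far more between the 2 WT libraries than between the groups. ELF4, a small protein of the complex, stood at 25.5 FPKM in WT replicate 1 and 1.42 FPKM in WT replicate 2, against 2.11 and 2.2 FPKM in K36M. The other 3 libraries of ELF4 thus lay within 1 FPKM of each other. ELF3, the scaffold of the complex, stood at 8.43 and 0.957 FPKM in WT, against 1.82 and 1.44 FPKM in K36M. LUX, its DNA-binding factor, stood at 9.9 and 3.23 FPKM in WT, against 2.46 and 5.04 FPKM in K36M.

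For all 3 genes WT replicate 1 was the highest library and the groups overlapped. The log2 differences were -1.34 ± 1.06 for ELF4, -0.71 ± 0.76 for ELF3 and -0.57 ± 0.59 for LUX (SE; limma adjusted p = 1 for each). Without WT replicate 1 they turned to 0.39, 0.42 and 0.11. Without WT replicate 2, which leaves WT replicate 1 as the only WT library, ELF4 alone among the members was called, at -3.07 (limma adjusted p = 0.027), a fit in which the lone library is assumed to vary like the other group.

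PRR5, the afternoon member of its family, had a mean under 1 FPKM and was not tested. It was read at 1.62 and 0.172 FPKM in WT, against 0.29 and 0.111 FPKM in K36M, again highest in WT replicate 1. The values in the replicate 2 libraries stood in a ratio of 3 to 2 after their relative depth was taken out, so they may rest on very few fragments.

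GI, a large evening protein that stabilises the photoreceptor ZTL and promotes flowering in long days, went against the other evening genes. It was read at 0.85 and 3.7 FPKM in WT, against 3.22 and 1.63 FPKM in K36M, lowest in WT replicate 1. The log2 difference was 0.17 ± 0.59 (SE; 95% interval -1.26 to 1.61; limma adjusted p = 1), made of 1.19 between replicate 1 and -0.84 between replicate 2 libraries. It turned to -0.50 without WT replicate 1 and to -0.17 without K36M replicate 1.

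The 9 tested members fell into 3 that were above WT within both replicate numbers, against 20.4% of all tested features, 1 that was below within both, against 28.0%, and 5 whose sign differed between the replicate numbers. WT replicate 1 was the highest library for 5 of the 9, against 34.0%. It lay more than 1 log2 unit above WT replicate 2 in the same number, PRR7, TOC1, LUX, ELF3 and ELF4, against 15.3%, and more than 1 unit below it in GI, against 18.6%. No tested member differed by more than 1 log2 unit between the K36M libraries, against 7.77%.

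Averaged over the 4 morning genes, log2(FPKM + 1) was 4.18 and 3.87 in WT, against 4.61 and 4.28 in K36M. Both K36M libraries were thus above both WT libraries, by 0.44 between replicate 1 and 0.41 between replicate 2 libraries. Averaged over the 6 evening genes it was 2.88 and 1.49 in WT, against 1.56 and 1.49 in K36M. Here WT replicate 2 and both K36M libraries were close together, and the difference was -1.32 between replicate 1 and 0.00 between replicate 2 libraries. The evening difference between the groups, -0.66, therefore rested on WT replicate 1, and the morning difference, 0.42, was seen within both replicate numbers. No label pairs the libraries of a number, and the morning genes contributed unequally. Between replicate 1 and between replicate 2 libraries CCA1 had 0.73 and 0.83, LHY 0.64 and 0.18, PRR9 1.12 and 0.16, and PRR7 -0.75 and 0.45. The morning difference ranged from 0.32 to 0.59 over the scalings and pseudocounts run. Without PRR5, which was too low to be rescaled, the evening difference was -0.68, and -0.57 with each library's trend against gene span removed.

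**Figure D3:**
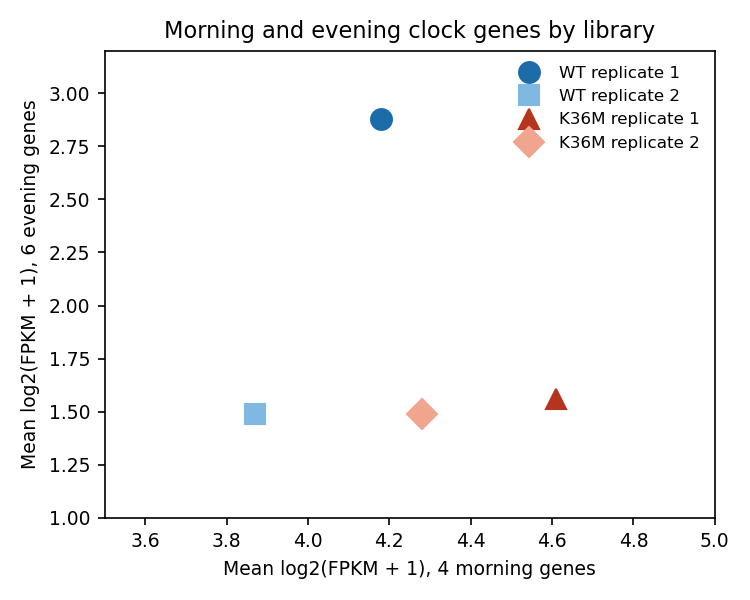
Mean log2(FPKM + 1) over the 4 morning genes (horizontal) and over the 6 evening genes (vertical), one point per library. WT replicate 1 stands at 2.88 on the evening axis and the other 3 libraries at 1.49 to 1.56, while both K36M libraries lie to the right of both WT libraries on the morning axis.

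The morning mean minus the evening mean was 1.30 and 2.38 in WT, against 3.05 and 2.79 in K36M, so both K36M libraries had the wider gap. The groups differed by 1.08, beside a spread within groups of 0.56 (SD), and no test was made because the members were chosen with results known. Within replicate 1 the difference was 1.75 and within replicate 2 it was 0.40, and leaving out WT replicate 1 gave 0.53. Ratios within a library do not change when the whole library is multiplied by a single factor. Quantile normalization and the gene span correction can change them, and the ratios below are from the values as deposited. With quantile normalization the morning minus evening gap was 1.17 and 1.95 in WT, against 2.89 and 2.47 in K36M. CCA1 exceeded TOC1 by 6.77-fold and 15.3-fold in WT and by 40.8-fold and 36.8-fold in K36M. CCA1 exceeded ELF4 by 2.92-fold and 37.1-fold in WT and by 59.2-fold and 42.7-fold in K36M, and here WT replicate 2 was close to K36M. CCA1 over GI did not separate the groups, at 87.9-fold and 14.2-fold against 38.9-fold and 57.9-fold.

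Markers of tissue layers also differed between WT replicate 1 and the other libraries. How often it was the lowest library was not counted over all tested features, so the counts of lowest markers have no share beside them. A gap of more than 1 log2 unit below WT replicate 2 was had by 18.6% of all tested features. Among tested markers it was seen in 3 of 4 mesophyll, 1 of 4 epidermis and 2 of 2 shoot meristem genes, and in no guard cell or vascular gene. WT replicate 1 was the lowest library for 4 of 4 epidermis markers, whose sum was 173 FPKM there against 666 FPKM in WT replicate 2 and 518 and 434 FPKM in K36M. Most of that gap was PDF1, at 4.81 FPKM against 404, 313 and 213 FPKM, and without it the sums were 168, 262, 205 and 221 FPKM. WT replicate 1 was also the lowest for 3 of 4 mesophyll markers and 3 of 4 shoot meristem markers. STM stood at 0 there, against 9.73 FPKM in WT replicate 2 and 10.6 and 7.89 FPKM in K36M. KNAT1 stood at 0.0354 FPKM there, against 2.69 FPKM in WT replicate 2 and 4.19 and 3.67 FPKM in K36M. WUS, listed at 0 in WT replicate 1, and CLV3 were under 1 FPKM in every library. WT replicate 1 was the highest for 3 of 4 guard cell markers, against 34.0% of all tested features. Their sum was 111 and 97.9 FPKM in WT, against 68.4 and 78.4 FPKM in K36M. Most of that sum was GC1, at 80.0 and 86.6 FPKM in WT, against 52.5 and 64.2 FPKM in K36M. For MYB60, FAMA and KAT1 the groups overlapped. The summed vascular markers stood at 263 and 253 FPKM in WT, against 275 and 235 FPKM in K36M, although AHA3 was highest in WT replicate 1 (91.4 FPKM) and SULTR2;1 lowest there (50.8 FPKM). The part of these in the clock values was not tested. In bulk leaf RNA fewer cells of a type and less RNA per cell cannot be told apart.

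Around the core genes, 60 genes in 9 lists of paralogs, partners, light receptors and outputs were examined, of which 53 were tested. None was called (limma adjusted p = 1 for each), and 2 had an unadjusted limma p under 0.05, against 4.12% of all tested features. Both K36M values lay above both WT values in 3 of the 53 and below in 9, against 12.1% and 19.3% of all tested features. The median difference over the 53 was -0.12. 

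Among the paralogs of the members, PRR3, the remaining pseudo-response regulator, was read at 1.51 and 0.124 FPKM in WT, against 0.136 and 0.12 FPKM in K36M, below the filter. BOA, the close paralog of LUX, was read at 2.66 and 0.847 FPKM in WT, against 0.976 and 0.733 FPKM in K36M, a log2 difference of -0.49 ± 0.52 (SE; limma adjusted p = 1). Both were highest in WT replicate 1 and close together in the other 3 libraries, as TOC1 and ELF4 were. Of the 4 ELF4-like genes, ELF4-L4 was highest in WT replicate 1 (5.57 FPKM, against 2.33 to 4.01 FPKM in the others), and the other 3 were not. ELF4-L3 had the greatest difference among them, with 1.65 and 0.706 FPKM in WT, against 1.32 and 5.27 FPKM in K36M, where K36M replicate 2 alone was high.

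A further 4 genes known to peak from afternoon to evening were picked after their values were seen. COR28 was read at 2.56 FPKM in WT replicate 1 and at most 0.178 FPKM in the others, and COR27 at 0.942 FPKM against at most 0.276 FPKM; both encode repressors of PRR5 and TOC1. FKF1, a blue light receptor of the flowering pathway, was at 0.691 FPKM against at most 0.0233 FPKM, and was listed at 0 in both replicate 2 libraries. JMJD5, a Jumonji-domain protein of the clock, was at 6.44 FPKM against at most 1.32 FPKM. As these 4 were picked for this form, they add no count to that of the members. In the evening output list, GRP8 was highest in WT replicate 2 (236 FPKM) and CO in K36M replicate 1 (1.12 FPKM).

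The REVEILLE factors are MYB proteins related to CCA1 and LHY, of which RVE4, RVE6 and RVE8 activate evening genes. All 8 were tested, and 1 had K36M above WT without overlap, against 12.1% of all tested features. This was RVE7, with 1.39 and 1.86 FPKM in WT, against 4.88 and 3.45 FPKM in K36M (log2 difference 0.97 ± 0.41, SE; limma adjusted p = 1). RVE8 stayed at 50.9 and 69.2 FPKM in WT, against 68.1 and 56.8 FPKM in K36M, so the ratio of RVE8 to CCA1 was 0.682 and 1.32 in WT and 0.545 and 0.603 in K36M. The LNK proteins are coactivators of RVE4 and RVE8. LNK1 was read at 15.8 and 19.3 FPKM in WT, against 30.0 and 25.9 FPKM in K36M (log2 difference 0.64 ± 0.40, SE; limma adjusted p = 1), above WT in both K36M libraries. WT replicate 1 was the lowest library for all 4 LNK genes. It lay more than 1 log2 unit below WT replicate 2 in 2 of them, against 18.6% of all tested features. For LNK2, LNK3 and LNK4 the groups overlapped.

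In the ZTL family of F-box light receptors, which mark TOC1 and PRR5 for degradation, LKP2 was read at 6.71 and 9.18 FPKM in WT, against 4.41 and 5.09 FPKM in K36M. Among the 7 photoreceptors of the light input, 2 had K36M values that were lower without overlap, against 19.3% of all tested features. PHYD, a red light receptor, was read at 3.86 and 2.25 FPKM in WT, against 1.26 and 0.66 FPKM in K36M (log2 difference -1.04 ± 0.46, SE; limma adjusted p = 1), with -1.11 between replicate 1 and -0.97 between replicate 2 libraries. PHYB, the main red light receptor of light-grown plants, was read at 16.2 and 16.3 FPKM in WT, against 14.7 and 9.76 FPKM in K36M.

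Of 13 tested genes among the other regulators, none had K36M above WT without overlap, against 12.1% of all tested features, and 3 had it below, against 19.3%. TIC, a nuclear regulator of the clock, was read at 26.4 and 11.5 FPKM in WT, against 10.9 and 6.73 FPKM in K36M, with WT replicate 1 again far above the rest. SKIP, a splicing factor, was read at 23.7 and 26.5 FPKM in WT, against 15.3 and 23.5 FPKM in K36M. LIP1, a small GTPase, was read at 15.7 and 17.0 FPKM in WT, against 11.5 and 13.3 FPKM in K36M. SKIP and LIP1 were close together in the 2 WT libraries, with log2 differences between the groups of -0.39 ± 0.43 and -0.38 ± 0.38 (SE; limma adjusted p = 1 for each).

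Outputs of the clock included the 2 related genes with an unadjusted limma p under 0.05. CDF1, a morning DOF factor that represses CO and FT, was read at 16.2 and 11.0 FPKM in WT, against 27.8 and 30.2 FPKM in K36M. Its groups were well apart, with a log2 difference of 1.06 ± 0.42 (SE; limma adjusted p = 1) and 0.74 between replicate 1 and 1.38 between replicate 2 libraries. GRP7, an RNA-binding protein whose transcript peaks in the evening, was read at 256 and 156 FPKM in WT, against 39.8 and 102 FPKM in K36M. Its log2 difference was -1.63 ± 0.64 (SE; limma adjusted p = 1), with -2.66 between replicate 1 and -0.61 between replicate 2 libraries. CCA1 over GRP7 within a library was 0.291 and 0.338 in WT and 3.14 and 0.924 in K36M.

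CAT3, the evening catalase, was read at 546 and 431 FPKM in WT, against 252 and 329 FPKM in K36M, below WT in both libraries. COL1, a dawn-phased relative of CO, was read at 45.7 and 61.4 FPKM in WT, against 41.1 and 43.8 FPKM in K36M, so the morning outputs did not all go the way of CDF1. Of the 7 tested morning outputs, 1 lay above WT without overlap and 1 below, and of the 3 tested evening outputs 2 lay below, against 12.1% above and 19.3% below over all tested features. WT replicate 1 was the lowest library for 5 of the 7 morning outputs, a count without a share over all tested features. In 4 of the 7 it lay more than 1 log2 unit below WT replicate 2, against 18.6% of all tested features. In the dark and sugar starvation list no gene separated the groups. DIN10 was read at 18.8 and 31.8 FPKM in WT, against 13.6 and 95.4 FPKM in K36M, where the 2 K36M libraries were the extremes. Its difference of 0.56 turned to -0.80 without K36M replicate 2.

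**Figure D4:**
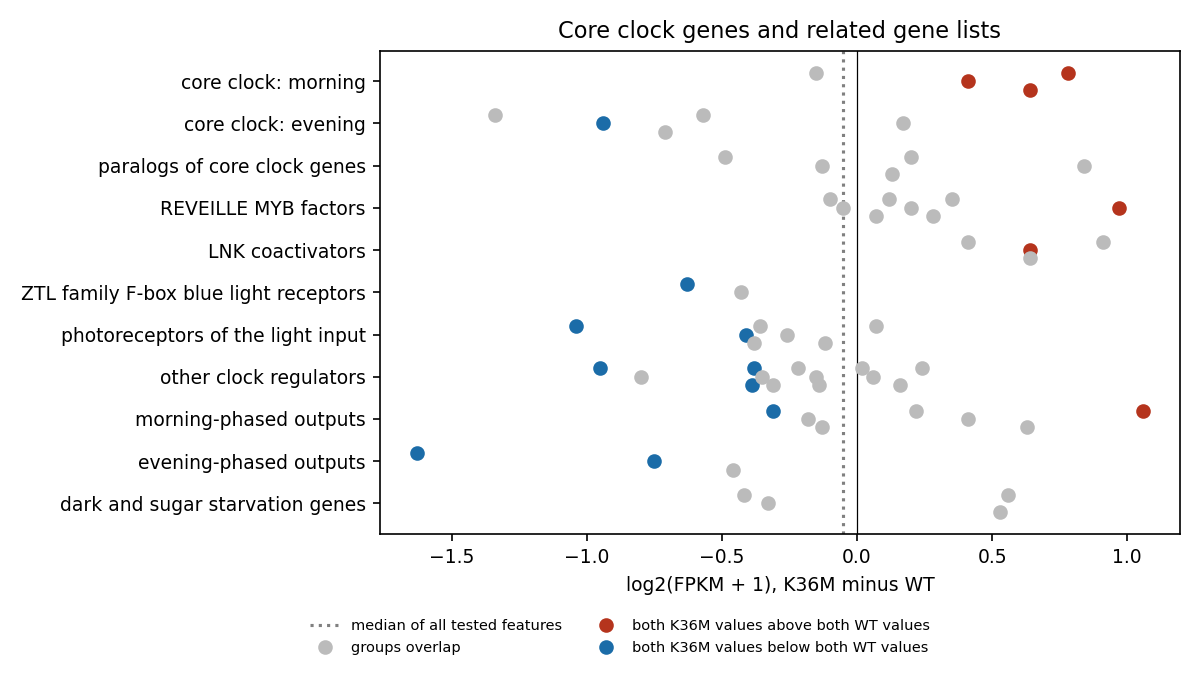
Difference K36M minus WT in log2(FPKM + 1) for each tested gene of the core clock and of the related lists, coloured by whether the 2 K36M values lie beyond the 2 WT values. The dotted line is the median of all tested features, -0.05; CDF1 lies at 1.06 among the morning outputs and GRP7 at -1.63 among the evening outputs.

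The features whose profile over the 4 libraries was nearest to CCA1, by Euclidean distance between log2(FPKM + 1) values centred on their mean, were AT5G22870 (distance 0.0911), AT1G50630 (0.102) and BZIP34 (0.107). BZIP34 was read at 7.91 and 5.56 FPKM in WT, against 14.7 and 9.8 FPKM in K36M. Nearest to TOC1 were PES2 (0.0103), ALAAT2 (0.0817) and AT3G59660 (0.0949), and PES2 was read at 12.8 and 4.08 FPKM in WT, against 3.64 and 3.05 FPKM in K36M. With 4 libraries such likeness is common, with 42 features within 0.3 of CCA1 and 117 within 0.3 of TOC1.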

How the data were processed

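The authors deposited FPKM in 1 long table without a header, and the labels name the unit. Per the submitters' processing notes, TAIR10, Bowtie2 and bedtools were used, with no role given, and the program that made the FPKM is not given in the sources used here. Each library was tied to its sample by the name that the sample's description quotes. Depth per library is not stated. Among genes under 1 FPKM in both replicate 2 libraries, 86.4% of 2664 values stood in ratios of whole numbers up to 12 (tolerance 0.0005 in natural log units). The other pairs had 3.3% to 3.7%, so relative depth was had for that pair only, and values are also given within each replicate number. Precision is therefore given by replicate spread.

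Values were analysed as log2(FPKM + 1) for the 17738 features whose mean reached 1 FPKM, with limma 3.58.1 in R 4.3.3 (mean-variance trend, two-sided, Benjamini-Hochberg over all features tested, threshold 0.05). A check of the fit on simulated data used equal spread in all libraries and changes larger than those of the members. It does not show how the fit performs for differences of their size. Python 3.11.15 with pandas 2.3.3 was used for tables. Gene names came from RefSeq TAIR10.1, in which 85 of 91 listed genes carried the name used here. Its build is not the one of the files, so coordinates are left out.

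The members and lists were chosen with earlier results of these data known. Named genes were all 10 members, HTR5, PRR3, BOA, the 3 nearest profiles to CCA1 and TOC1, and up to 4 genes per list, first those whose groups did not overlap. Alternatives were other pseudocounts, filters, scalings and moderation, a gene span correction, the replicate number as a block and each library left out.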

Additional observations from a re-analysis of the deposited data

How the results depend on the processing

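Over all tested features 5 were called higher and 2 lower (limma). With a pseudocount of 5, with no filter and with the replicate block these were 0 and 0 (limma, 673, 1175 and 794 features at an unadjusted p under 0.05), and with the gene span trend removed 2 and 2. The replicate block together with that removal gave 5 and 5. Leaving out 1 library each gave 0 to 192 higher and 0 to 510 lower, the largest without WT replicate 2. Of the clock genes 0 to 1 were called in those fits (ELF4, without WT replicate 2), and 0 in each other alternative, the replicate block included. No label ties the replicate numbers to a batch. The replicate 2 libraries did share whole-number ratios, in 86.4% of their low values, against 3.3% to 3.7% for the other pairs. The reason was not tested. Deviations of the replicate 1 libraries from their group means correlated at 0.128 across features. In this balanced design the block cannot move a gene's difference, only its error.

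The morning minus evening difference was 1.08, and 0.53 to 1.62 with 1 library left out. It was 1.75 within replicate 1 and 0.40 within replicate 2 libraries, and 0.73 to 1.34 over pseudocounts, scalings and choices of members, of which leaving out PRR5 alone (1.10) was added after seeing the data. With 1 library left out the sign of some genes turned, the range being -0.74 to 0.44 for PRR7, -0.50 to 0.85 for GI, -1.25 to 0.11 for LUX, -1.85 to 0.42 for ELF3, -3.07 to 0.39 for ELF4 and -0.80 to 1.92 for DIN10. PRR7 also turned with the gene span trend removed (0.07, with and without the block). The cause was not tested. HTR5, at 0.00, went from -0.57 to 0.57 with 1 library left out, and BOA was at 0.00 without WT replicate 1. The remaining genes named from the lists by the rule given above kept their direction in each alternative run. Other genes shown with their values, among them RVE8, JMJD5 and ELF4-L4, were not followed through the alternatives, and the nearest profiles were not recomputed. Low values limit the precision of PRR5, PRR3 and FKF1. Between the replicate 2 libraries, with relative depth taken out, ELF4 stood at 5 to 8 and PRR7 at 7 to 11. These values may also rest on few fragments.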
